A study of Homo sapiens with 18 samples.

Results

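Depletion of Tsg101 was compared directly with depletion of Vps28 in RKO cells, an established human colorectal carcinoma line. The comparison used 12 of the 18 libraries of the series, namely those transfected with siTsg101#1 or siTsg101#2 (6 libraries) and those transfected with siVps28#1 or siVps28#2 (6 libraries). The 6 libraries of the nontargeting siCtrl#1 and siCtrl#2 were used only to show the direction from baseline. Every siRNA was given at 30 nM and cells were harvested 72 h later, in 3 batches that each held 1 library of every siRNA and that the study describes as independent experiments. The cells carried no other treatment, and all results come from this 1 line, in which each target was lowered and not deleted.

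Tsg101 and Vps28 are core subunits of ESCRT-I, a cytosolic complex that binds ubiquitinated membrane proteins on endosomes and hands them on for sorting into the inner vesicles of multivesicular bodies and degradation in lysosomes. Tsg101 carries the domain that recognises ubiquitin and short peptide motifs of partner proteins, and Vps28 links the complex to ESCRT-II. ESCRT-I also acts in cytokinesis and virus budding, and the direct comparison asks which transcripts differ between siRNAs against Tsg101 and siRNAs against Vps28.

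Transcripts were read through 1 amplicon each, on an Ion AmpliSeq transcriptome panel. Gene counts summed to between 2561790 and 7466916 in a library, and the median sum was 6236086 for Tsg101 depletion and 5466465 for Vps28 depletion. Levels are given below as CPM, the counts of a gene relative to the scaled size of its library. Differences are given as log2(Tsg101 depletion / Vps28 depletion) with the standard error (SE) of the fit. The fit took each siRNA as its own group. The SE and p-values of a mean over both siRNAs of a target thus measure the spread of libraries within an siRNA. They leave out the spread between the siRNAs of a target. Of the epithelial and colorectal markers, KRT8, KRT18, EPCAM and CDX2 passed the filter on low counts (4 of 11), CDH1 had no count in any library, and the summed CPM of the list ranged from 97.2 to 120 after Tsg101 depletion and from 92.7 to 139 after Vps28 depletion. Of 14 markers of other cell types only CD68, which encodes a lysosomal membrane protein as well, passed the filter, and it was not called different between the depletions (0.27).

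The siRNAs of each target lowered their own transcript, and the other transcript was not called different from controls. This holds for RNA only. The study reports from Western blots of RKO cells that depleting either subunit strongly lowered the protein of the other. By that report both proteins were lowered in either depletion. TSG101 (ENSG00000074319, GRCh37 chromosome 11, 18489883 to 18548498, minus strand) had 8 to 34 counts in the Tsg101-depleted libraries and 369 to 960 in the Vps28-depleted libraries. In CPM its lowest, median and highest values were 2.49, 3.47 and 4.99 after Tsg101 depletion, 91.8, 109.6 and 166.6 after Vps28 depletion, and 74.5, 105.9 and 158.6 in controls. No Tsg101-depleted library came near any other library, and the Vps28-depleted libraries overlapped the controls.

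VPS28 (ENSG00000160948, GRCh37 chromosome 8, 145648984 to 145653946, minus strand) had 216 to 702 counts after Tsg101 depletion and 12 to 45 after Vps28 depletion. Its CPM was 83.5, 94.1 and 103.7 (lowest, median, highest) after Tsg101 depletion and 3.48, 5.72 and 7.78 after Vps28 depletion. The targets differed by -4.98 (SE 0.23, TSG101) and 3.97 (SE 0.15, VPS28) on the log2 scale, with adjusted p-values of 7.01e-13 and 2.14e-14 (edgeR quasi-likelihood test, Benjamini-Hochberg adjustment over all tested genes, as for every adjusted p below). Neither pair of siRNAs differed in its own target beyond the spread, since the siTsg101 siRNAs differed by 0.22 in TSG101 (SE 0.42, adjusted p = 0.792) and the siVps28 siRNAs by -0.07 in VPS28 (adjusted p = 0.965). TSG101 shares exon bases with a neighbour on the opposite strand, LDHAL6A.

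**Figure D1:**
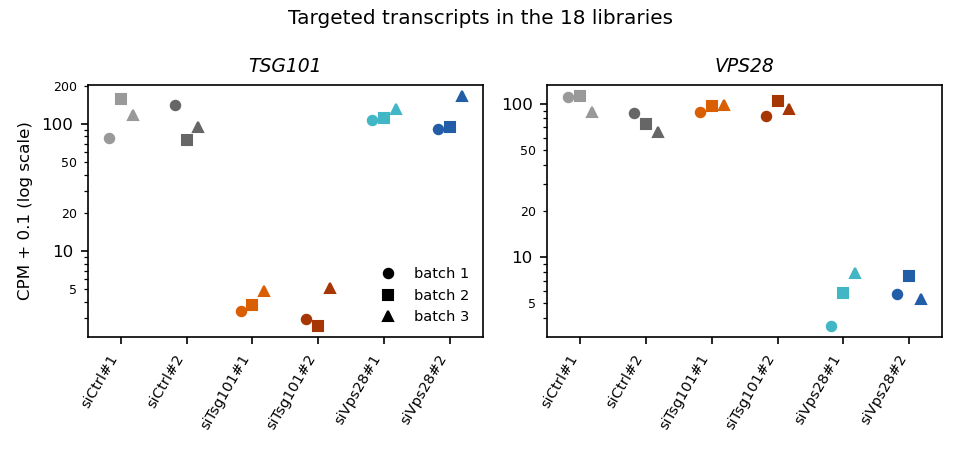
TSG101 and VPS28 in the 18 libraries, as CPM + 0.1 on a log axis, with 1 point per library, colour for the siRNA and marker shape for the batch. The 6 libraries of each depleted target lie below 8 CPM, and the other 12 lie above 65 CPM.

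Most differences between the depletions were in transcripts with more reads after Tsg101 depletion. A call required a change of at least 1.5-fold and an adjusted p-value below 0.05. By this rule 680 of 10212 tested genes (6.66%) differed, 459 higher after Tsg101 depletion (4.49%) and 221 higher after Vps28 depletion (2.16%). A difference was counted as held only when it was called in the same direction in all 4 pairs of 1 siTsg101 with 1 siVps28 siRNA, which left 192 genes (1.88%). Over all tested genes, the pair siTsg101#1 with siVps28#1 gave 9.58% called (5.06% higher with the siTsg101 siRNA and 4.51% lower), siTsg101#1 with siVps28#2 gave 10.2% (5.18% and 4.99%), siTsg101#2 with siVps28#1 gave 6.38% (4.14% and 2.24%), and siTsg101#2 with siVps28#2 gave 9.12% (5.68% and 3.44%). Of these 165 were higher after Tsg101 depletion (1.62%), VPS28 included, and 27 were higher after Vps28 depletion (0.264%), TSG101 included. In 178 of the 192 held genes the 6 libraries of 1 depletion did not overlap the 6 of the other, against 508 of all tested genes (4.97%), 3.33% higher after Tsg101 and 1.65% higher after Vps28 depletion. Held genes were chosen from these same libraries by a rule that favours such separation, so this is a description.

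Within each batch the direction was the same. All 164 held genes higher after Tsg101 depletion (VPS28 aside) were higher in each of the 3 batches, with median differences of 1.24, 1.37 and 1.17, and all 26 held genes higher after Vps28 depletion (TSG101 aside) were lower after Tsg101 depletion in each batch, with medians of -0.91, -1.13 and -0.94. The choice of held genes used these same libraries, so this is a description of them.

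Against the nontargeting siRNAs, the held differences were mainly changes seen after Tsg101 depletion. Relative to the controls 1762 genes (17.3%) were called after Tsg101 depletion, 10.6% risen and 6.69% fallen, and 1086 genes (10.6%) after Vps28 depletion, 5.59% risen and 5.04% fallen. Both counts share the same 6 control libraries. Of the 165 held genes higher after Tsg101 depletion, 137 rose from the controls with Tsg101 depletion and were not called with Vps28 depletion, 17 rose with both, 5 fell with Vps28 depletion alone, and 4 were called with neither. Of the 27 higher after Vps28 depletion, 21 fell with Tsg101 depletion and were not called with Vps28 depletion. ACVR1 rose with Vps28 depletion and was not called with Tsg101 depletion, STK17A rose with both, and NXPH4 fell with both. H2BC4 was the 1 held gene called in opposite directions from the controls. One tested gene outside the held set stood far out, PI3, the secreted protease inhibitor elafin, chosen here after its value was seen. Its log2 difference from the controls was 7.11 after Tsg101 and 4.79 after Vps28 depletion, and its direct difference was 2.32 (SE 0.33, adjusted p = 3.83e-05).

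**Figure D2:**
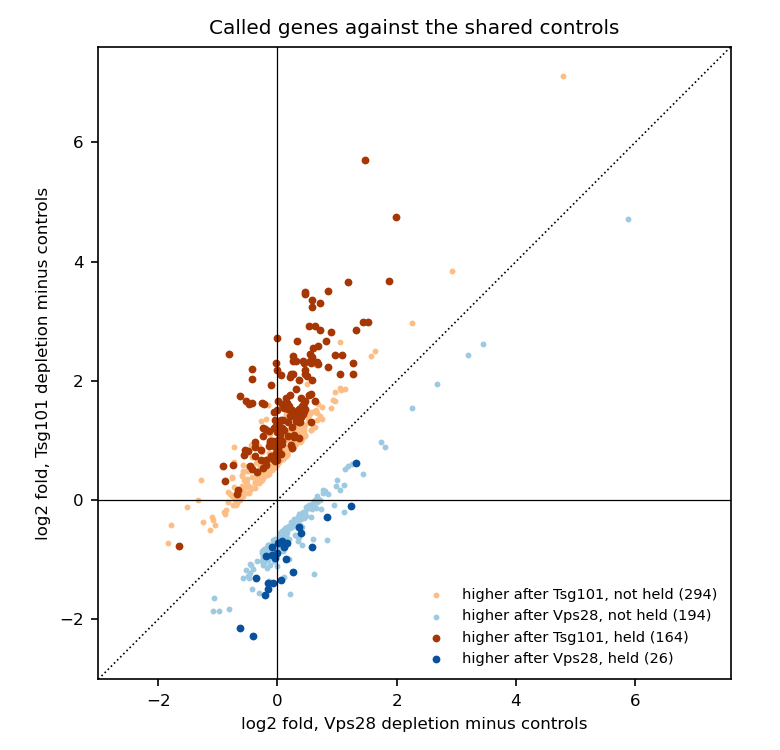
Log2 fold from the controls after Vps28 depletion (x axis) and after Tsg101 depletion (y axis) for the called genes, TSG101 and VPS28 aside, with held genes in dark colours. Both axes share the same control libraries, the dotted line marks equal change, and most of the 164 held genes higher after Tsg101 depletion lie near 0 on the x axis and above 0 on the y axis.

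The filter on low counts summed all libraries, so a gene near 0 in control and Vps28-depleted libraries was tested only through its Tsg101-depleted ones, and the levels of the 164 held genes higher after Tsg101 depletion are a description. Their median level was 9.6 CPM in controls, 27.2 after Tsg101 and 11 after Vps28 depletion. The median difference was 1.29, and 130 of the 164 differed by more than 1 on the log2 scale. Of all 10212 tested genes, 214 did so in either direction. The rule for held genes required at least 1.5-fold in every pair, so these sizes are a description too. The 26 held genes higher after Vps28 depletion had a median of 40.9 CPM in controls, 23.2 after Tsg101 depletion and 41.8 after Vps28 depletion, with a median difference of -0.94. A gene with few counts in the control and Vps28-depleted libraries has an imprecise fold, which the SE shows.

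FAM120AOS, a gene on the strand opposite to FAM120A, had the largest held difference. Its counts were 12 to 57 after Tsg101 depletion, 0 to 3 after Vps28 depletion and 0 to 4 in controls. The difference was 4.23 (SE 0.41, adjusted p = 2.52e-07), and its groups did not overlap. FAM120AOS passed the filter on low counts only through its Tsg101-depleted libraries, so this p-value and the lack of overlap are a description. The strand setting of the authors' counting is not given in the sources used here, so reads of FAM120AOS and FAM120A in their shared exon bases cannot be told apart. MTCH1, a protein of the outer mitochondrial membrane, was likewise near the limit of detection, with 4 to 27 counts after Tsg101 depletion and 0 to 4 after Vps28 depletion (difference 3.25, SE 0.54). TBC1D2B, GNL3L, CSPP1 and TTF1 had at most 37 counts in any library and differed by 2.61 to 2.99.

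The next genes were measured with more reads. CEBPB, a transcription factor of inflammatory and stress responses (GRCh37 chromosome 20, 48807367 to 48809205), had a lowest, median and highest level of 32.8, 53.8 and 65.5 CPM after Tsg101 depletion, 4.30, 8.15 and 13.1 CPM after Vps28 depletion, and 0, 1.92 and 3.93 CPM in controls. The 3 ranges did not touch, so that CEBPB was higher in both depletions than in controls and higher again after Tsg101 depletion (difference 2.76, SE 0.20, adjusted p = 1.72e-09). It was the 1 called gene higher after Tsg101 depletion among 22 members of the ATF4 amino acid response list, whose median difference was -0.25 against -0.01 over all tested genes, and SLC7A11 was the 1 member called higher after Vps28 depletion.

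TMF1 encodes a golgin that tethers vesicles at the Golgi (GRCh37 chromosome 3, 69068978 to 69101490). It was at 10.8, 16.2 and 20.5 CPM after Tsg101 depletion and at 1.44, 2.02 and 3.47 CPM after Vps28 depletion, and the Vps28-depleted libraries overlapped the controls, which reached 2.27 CPM. The difference was 2.77 (SE 0.25), and it was 1.995, 3.295 and 2.319 in the 3 batches. UBLCP1, a phosphatase that acts on the proteasome, differed by 3.02 (SE 0.22), with every Tsg101-depleted library at or above 8.81 CPM and every Vps28-depleted library at or below 1.82 CPM. WDR45, a beta-propeller protein of autophagosome formation, differed by 2.58 (SE 0.21), but 50.3% of its transcript is shared with other transcripts. SRGAP2, a regulator of membrane shape, differed by 2.47 (SE 0.21).

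TRAPPC11, a subunit of the TRAPP III tethering complex that acts on the Golgi and in autophagy (GRCh37 chromosome 4, 184580420 to 184634747), was also among the largest differences. Its CPM was 7.68, 10.5 and 12.6 after Tsg101 depletion and 0.66, 1.98 and 2.11 after Vps28 depletion, with no overlap (difference 2.65, SE 0.25, adjusted p = 8.17e-08). Members of the TRAPP complexes were then examined after these values were seen. Of 13 tested, TRAPPC3 (0.95, SE 0.12) and TRAPPC4 (0.68, SE 0.12) were held in the same direction with TRAPPC11, none was called in the other, and the median over the 13 was 0.20. The count includes TRAPPC11, which prompted the look, and over all tested genes 4.49% were called and 1.62% held in this direction. TRAPPC3 stood at 60.7 to 92.4 CPM after Tsg101 depletion and 35.1 to 45.1 CPM after Vps28 depletion, so that its groups did not overlap.

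**Figure D3:**
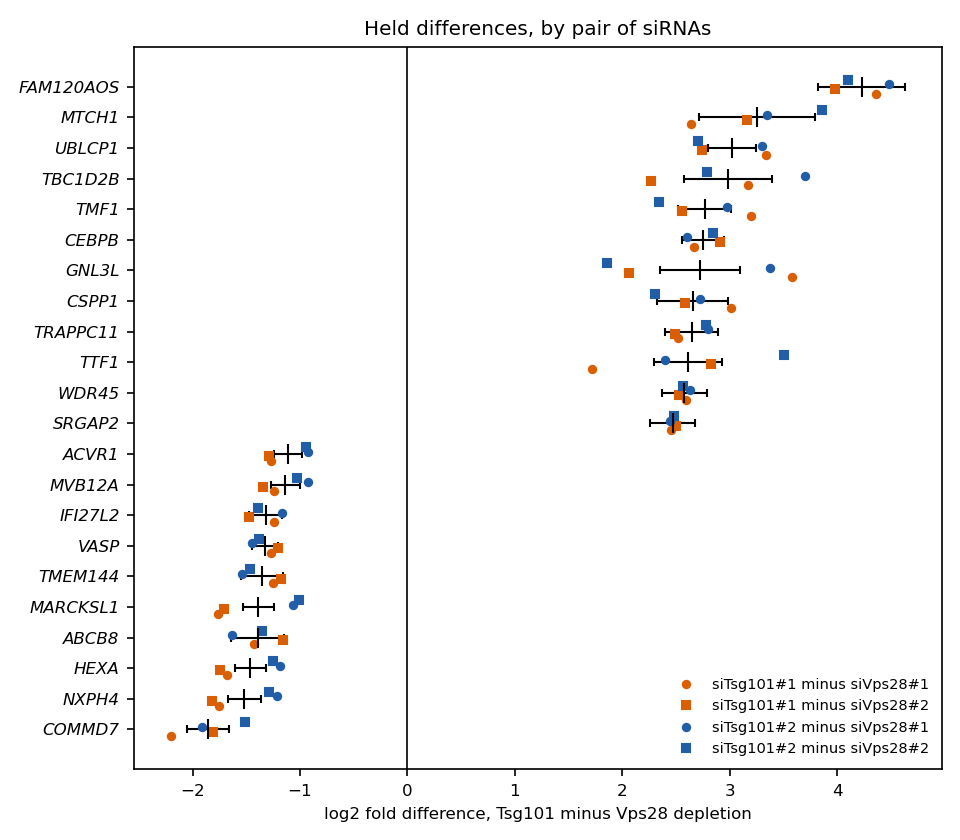
Held genes with large differences, 12 higher after Tsg101 and 10 higher after Vps28 depletion, as log2 fold between Tsg101 and Vps28 depletion for each of the 4 siRNA pairs (points) and for the mean of both siRNAs (bar with 1 SE). All 4 points of every gene lie on the same side of 0, as the rule requires, and they lie far apart for TTF1 and GNL3L, which have few counts.

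Further held genes were named after their values were seen, and no test of them as a group was made. LMAN1, a lectin receptor that carries glycoproteins out of the endoplasmic reticulum, was at 19.97 to 32.91 CPM after Tsg101 depletion and 5.29 to 9.91 CPM after Vps28 depletion (difference 1.90, SE 0.17, adjusted p = 4.67e-08). OCRL, an inositol phosphatase of endosomes and the Golgi, was at 18.01 to 31.75 CPM against 5.04 to 9.72 CPM (difference 1.92, SE 0.17). Neither gene had overlapping groups, and OCRL rose from the controls in both depletions, by 2.82 and by 0.90. RAB1A, the GTPase of transport between endoplasmic reticulum and Golgi, differed by 1.44 (SE 0.14), RER1, a retrieval receptor, by 1.19 (SE 0.13), and OSBP, a sterol transporter at contact sites with the Golgi, by 0.93 (SE 0.11). FAF2 and DERL2, which act in the degradation of endoplasmic reticulum proteins, differed by 1.90 (SE 0.20) and 0.96 (SE 0.15), and MAN1B1, a mannosidase of the same route, by 1.92 (SE 0.30) at under 7 CPM.

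Held differences were also found in abundant transcripts, again named after their values were seen. SF1, a splicing factor that binds the branch point, was at 215.8, 254.9 and 288.1 CPM after Tsg101 depletion and 57.0, 65.0 and 86.1 CPM after Vps28 depletion (difference 1.92, SE 0.13, adjusted p = 4.79e-10). Its groups did not overlap, and it was at 36.3 to 55.9 CPM in controls. EIF4B, a translation initiation factor, was at 473.2 to 674.1 CPM against 127.2 to 330.1 CPM (difference 1.72, SE 0.15), and 44.9% of its transcript is shared with other transcripts. YBX1, an abundant mRNA-binding protein with 34.2% of its transcript shared, differed by 0.75 (SE 0.12).

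Of 70 tested cytosolic ribosomal protein genes, 3 were called with more reads after Tsg101 depletion and 1 with more after Vps28 depletion, with a median difference of -0.07. Together 5.71% of the list was called, against 6.66% of all tested genes. RPL8 was at 1927, 2061 and 2312 CPM after Tsg101 depletion and 657.9, 764.5 and 973.4 CPM after Vps28 depletion, with no overlap (difference 1.39, SE 0.13, adjusted p = 7.05e-08), and was at 528.9 to 985.6 CPM in controls. RPL8 shares 21.4% of its transcript with other transcripts, RPL24 82.5% and RPL13 27.1%. RPL35A differed by 1.82 (SE 0.18) and was held as well. RPL24 was called (0.60, SE 0.12) but not held, and RPL13 was called the other way (-0.65, SE 0.10). Of the 70, 18 passed an unadjusted p under 0.05, as did 2950 of all 10212 tested genes.

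NFkB is a family of transcription factors that drive inflammatory genes and induce their own inhibitors. Of 14 tested NFkB subunits and feedback inhibitors, 12 rose from the controls after Tsg101 and 11 after Vps28 depletion. Over all tested genes 10.6% and 5.59% rose. The median direct difference of the list was -0.07. BCL3 and TNFAIP3 were the members called different, both held. They made up 14.3% of the list, against 6.66% called and 1.88% held over all tested genes. TNFAIP3, the deubiquitinase A20 that restrains NFkB (GRCh37 chromosome 6, 138188351 to 138204451), was at 9.97, 13.8 and 20.1 CPM after Tsg101 depletion, 2.78, 5.08 and 6.41 CPM after Vps28 depletion and 1.20, 2.00 and 3.38 CPM in controls. Its depletion groups did not overlap (difference 1.53, SE 0.20, adjusted p = 7.92e-06), and it rose from the controls in both, by 2.85 and 1.32, although the Vps28-depleted libraries overlapped the controls.

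BCL3, a nuclear IkB protein that binds p50 and p52 (GRCh37 chromosome 19, 45250962 to 45263301), was at 3.99, 6.71 and 14.3 CPM after Tsg101 depletion and 1.04, 1.55 and 2.90 CPM after Vps28 depletion. It rose after Tsg101 depletion, and after Vps28 depletion it overlapped the controls, which were at 0.68 to 2.77 CPM, with a difference from them of 0.05 (adjusted p = 0.94, direct difference 2.04, SE 0.29, adjusted p = 2.41e-05). ICAM1, an adhesion receptor for leukocytes (GRCh37 chromosome 19, 10381769 to 10397291), was at 97.1, 151 and 292.6 CPM after Tsg101 depletion, 41.7, 59.5 and 65.1 CPM after Vps28 depletion and 13.4, 20.6 and 27.0 CPM in controls. The 3 ranges did not touch (direct difference 1.54, SE 0.15, adjusted p = 1.37e-07). ICAM1 was also higher with siTsg101#1 than with siTsg101#2, by 0.70 (SE 0.20, adjusted p = 0.027), and shares exon bases with antisense genes.

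The 250 bases before the start sites of TNFAIP3 and ICAM1 are shown as examples of NFkB-list genes that rose in both depletions and more after Tsg101 depletion (RefSeq, GRCh38.p14, plus strand). Capitals mark matches to the 10-base kappaB consensus on either strand, of which TNFAIP3 (chr6:137867009-137867258) holds 2, close together, and ICAM1 (chr19:10270870-10271119) none.
TNFAIP3: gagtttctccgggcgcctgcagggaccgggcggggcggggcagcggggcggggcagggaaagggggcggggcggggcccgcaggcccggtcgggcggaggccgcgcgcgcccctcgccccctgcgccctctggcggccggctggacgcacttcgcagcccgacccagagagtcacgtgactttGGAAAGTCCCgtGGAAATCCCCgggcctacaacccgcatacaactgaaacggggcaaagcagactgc
ICAM1: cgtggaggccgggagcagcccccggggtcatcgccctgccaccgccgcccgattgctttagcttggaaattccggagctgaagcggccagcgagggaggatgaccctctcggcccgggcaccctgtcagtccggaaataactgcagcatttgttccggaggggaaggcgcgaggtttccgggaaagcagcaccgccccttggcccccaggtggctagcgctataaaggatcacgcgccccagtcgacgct
The consensus was found in 24 of 139 promoters of held genes higher after Tsg101 depletion (17.3%), in 3 of 22 of those higher after Vps28 depletion (13.6%), in 15.6% of 8428 promoters of all tested genes and in 9.96% of all 35116 promoters in the table. A match is a description of these letters, and a promoter without one, such as that of ICAM1, says nothing about binding of the factor there. CEBPB, which rose in both depletions as well, has more than 1 start site in the table, 1 with 2 overlapping matches and another with none, and is not printed. The AP-1 site TGANTCA was in 7 of the 139 promoters (5.04%) and in 5.36% of those of tested genes.

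Of 13 tested chemokines and cytokines, 11 rose and 1 fell from the controls after each depletion (10.6% and 5.59% of all tested genes rose). The median direct difference was -0.02, and none was held by edgeR or DESeq2. An unadjusted p under 0.05 was reached by 7 of them and by 2950 of all 10212 tested genes. CXCL8, the neutrophil chemokine IL-8, named here as a reference after its value was seen, was at 40.9 to 236.2 CPM after Tsg101 depletion, 58.5 to 96.5 CPM after Vps28 depletion and at most 1.16 CPM in controls. Its direct difference of 0.37 (SE 0.12, adjusted p = 0.0371) was under 1.5-fold. This is a mean over Tsg101-depleted libraries that lay both below and above the Vps28-depleted range, so it does not show that CXCL8 was alike in the depletions. EBI3, an interleukin subunit, was called higher after Tsg101 depletion (0.91, SE 0.26) and CSF2, a myeloid growth factor, higher after Vps28 depletion (-1.16, SE 0.29). Both had at most 12 CPM, and their groups overlapped. EBI3 lost its call without the replicate block (adjusted p = 0.0596) and in several fits that left out 1 library, and CSF2 without siVps28#1 replicate 2 (0.0522). Among 22 TNF receptors and adaptors, TNFRSF1A, the main receptor for TNF, was held, at 123.6 to 153.9 CPM after Tsg101 depletion and 68.7 to 91.8 CPM after Vps28 depletion (0.78, SE 0.11, adjusted p = 2.31e-05). TRAF5 (0.87, SE 0.23) and TNFRSF21 (-0.69, SE 0.13) were called but not held, and in the list of 11 NFkB-induced effectors GBP2 (1.62, SE 0.37) was called with ICAM1.

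**Figure D4:**
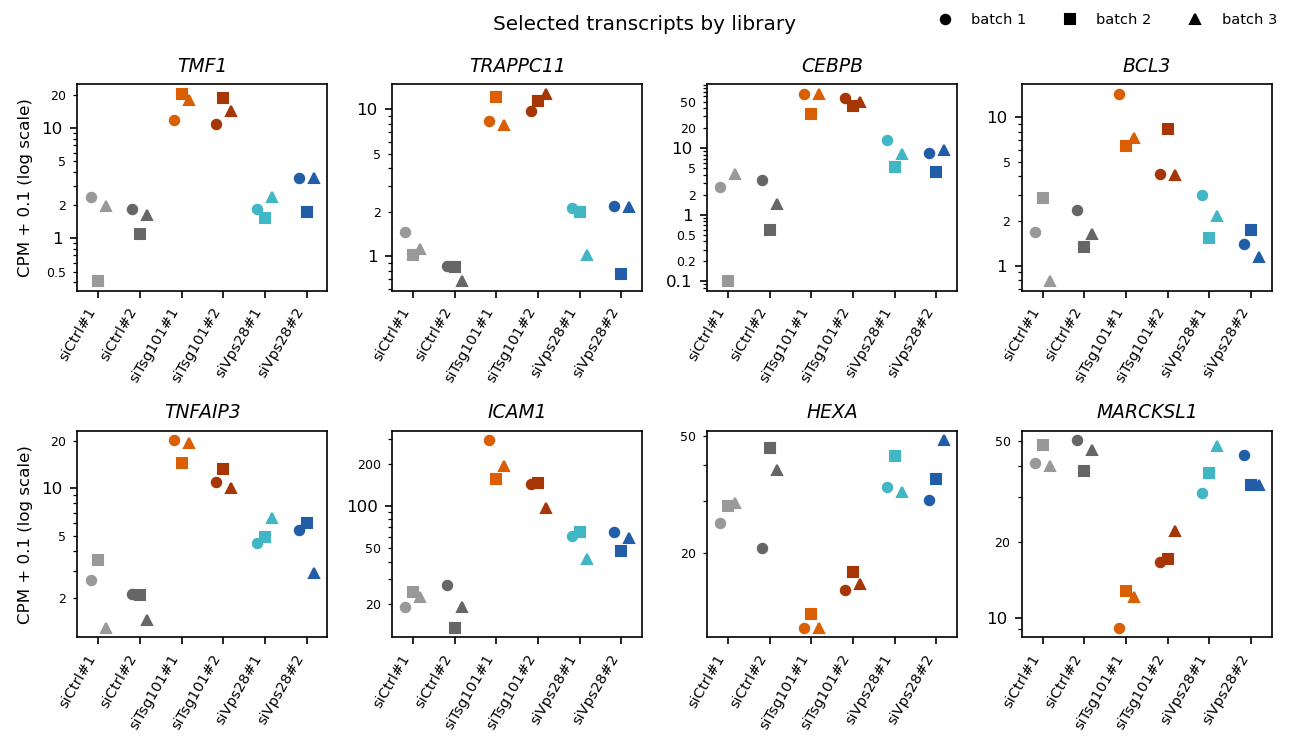
Selected transcripts in the 18 libraries, as CPM + 0.1 on log axes that differ between panels, with 1 point per library, colour for the siRNA and marker shape for the batch. TMF1, TRAPPC11 and BCL3 have Vps28-depleted libraries near the controls, CEBPB and ICAM1 have them between controls and Tsg101 depletion, TNFAIP3 has them below Tsg101 depletion and in part within the controls, and HEXA and MARCKSL1 are low after Tsg101 depletion. The lowest CEBPB control point is a library with 0 counts.

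Held genes higher after Vps28 depletion were fewer and their differences smaller. COMMD7, a member of a protein family that restrains NFkB and serves endosomal recycling, was at 2.10, 3.80 and 4.68 CPM after Tsg101 depletion, 10.1, 12.6 and 19.0 CPM after Vps28 depletion and 12.6 to 23.0 CPM in controls (difference -1.86, SE 0.20, adjusted p = 5.47e-07). The groups did not overlap, and 44.3% of the COMMD7 transcript is shared with other transcripts. HEXA, the alpha subunit of the lysosomal enzyme beta-hexosaminidase (GRCh37 chromosome 15, 72633265 to 72668761), was at 11.03, 13.6 and 17.1 CPM after Tsg101 depletion, 30.2, 34.5 and 48.3 CPM after Vps28 depletion and 20.7 to 45.6 CPM in controls. It fell after Tsg101 depletion by 1.20 on the log2 scale and differed from Vps28 depletion by -1.46 (SE 0.14, adjusted p = 1.92e-07), with no overlap. HEXA shares exon bases with antisense and same-strand genes.

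Further genes higher after Vps28 depletion were measured at higher levels. VASP, which promotes the growth of actin filaments, was at 61.4 to 87.3 CPM after Tsg101 depletion and 150.5 to 215.9 CPM after Vps28 depletion (-1.33, SE 0.12, adjusted p = 6.67e-08), and was at 175.6 to 254.2 CPM in controls. MARCKSL1, an actin-binding membrane protein, was at 9.004, 14.6 and 21.9 CPM against 31.1, 35.4 and 47.6 CPM (-1.39, SE 0.14, adjusted p = 2.74e-07), and was lower with siTsg101#1 than with siTsg101#2 by 0.70 (adjusted p = 0.0368). ACVR1, a receptor of bone morphogenetic proteins and activins, was highest after Vps28 depletion, at 65.0 to 83.6 CPM after Vps28 depletion, 24.7 to 45.3 CPM after Tsg101 depletion and 26.8 to 63.8 CPM in controls (-1.11, SE 0.13, adjusted p = 1.78e-06).

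NXPH4, a secreted neurexin ligand, fell in both depletions and further after Tsg101 depletion (-1.52, SE 0.15), while ABCB8, a mitochondrial ATP-binding transporter (-1.39, SE 0.25), and IFI27L2 (-1.32, SE 0.15) fell after Tsg101 depletion and were not called after Vps28 depletion. TMEM144 differed by -1.36 (SE 0.20), from 3.66 to 4.99 CPM after Tsg101 depletion and from 7.26 to 17.3 CPM after Vps28 depletion.

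Within ESCRT-I itself 4 of 9 subunits were called different, the targets included. VPS37A, an alternative form of the VPS37 subunit of the complex, was at 17.8, 25.5 and 27.7 CPM after Tsg101 depletion, 8.65, 11.7 and 15.5 CPM after Vps28 depletion and 6.15 to 11.8 CPM in controls. Its groups did not overlap, and the difference was 1.07 (SE 0.14, adjusted p = 1.54e-05). MVB12A, an accessory subunit, was at 11.5, 13.8 and 15.9 CPM after Tsg101 depletion, 25.9, 28.6 and 39.3 CPM after Vps28 depletion and 23.1 to 32.6 CPM in controls (-1.14, SE 0.13, adjusted p = 2.41e-06). It thus fell after Tsg101 depletion and was not called after Vps28 depletion, and VPS37A shares exon bases with MTMR7 on the opposite strand. Of 22 subunits of the other ESCRT complexes and their partners, CHMP1A, an ESCRT-III protein, was called (0.71, SE 0.11) but not held. This was 4.55% of that list, against 6.66% of all tested genes. HGS, the ESCRT-0 subunit Hrs, differed by 0.42 (SE 0.11, adjusted p = 0.00791), under 1.5-fold.

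Of 20 cholesterol biosynthesis enzymes, 15 rose from the controls in each depletion, against 10.6% and 5.59% of all tested genes, and the median direct difference was 0.02. NSDHL, a sterol dehydrogenase, was the 1 called member and was held, at 83.4 to 118.4 CPM after Tsg101 depletion, 40.1 to 69.4 CPM after Vps28 depletion and 19.1 to 28.5 CPM in controls (0.85, SE 0.12, adjusted p = 1.87e-05). HMGCS1, named as a reference after its value was seen, differed by -0.33 (SE 0.11, adjusted p = 0.0507). Among 17 SREBP regulators and fatty acid synthesis genes 7 rose and 1 fell from the controls in each depletion, and INSIG2 (0.69, SE 0.18) and LPIN1 (-0.62, SE 0.11) were called and not held. None of 10 cholesterol egress and efflux genes was called by edgeR or DESeq2, and 2 and 3 of them rose from the controls after Tsg101 and Vps28 depletion. An unadjusted p under 0.05 was reached by 4 of the 10 and by 2950 of all 10212 tested genes. LIPA, lysosomal acid lipase, had the smallest adjusted p of these 10 (-0.36, SE 0.11, adjusted p = 0.0326).

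Of 47 lysosomal hydrolases and membrane proteins 3 were called (6.38%, near the 6.66% of all tested genes), and the median difference was 0.00. SLC36A1, an amino acid exporter of the lysosomal membrane, was held, at 30.4, 33.0 and 40.1 CPM after Tsg101 depletion, 12.7, 16.04 and 24.7 CPM after Vps28 depletion and 4.31 to 12.5 CPM in controls (1.03, SE 0.12, adjusted p = 3.11e-06), HEXA was held the other way, and TPP1, a lysosomal peptidase, was called (-0.65, SE 0.10). In the list of 40 autophagy genes WDR45 and UVRAG, a regulator of the autophagy lipid kinase complex (1.14, SE 0.15, adjusted p = 9.51e-06), were held. ATG16L1 (0.73, SE 0.17) and GABARAPL2 (-0.63, SE 0.12) were called only, so that 10.0% of the list was called. ATP6V0A2 (0.83, SE 0.18) was the 1 called gene among 16 V-ATPase subunits (6.25%). None of 21 MiT-TFE factors, folliculin and mTORC1 genes was called by edgeR or DESeq2. An unadjusted p under 0.05 was reached by 6 of the 21 and by 2950 of all 10212 tested genes. TFE3 itself differed by -0.46 (SE 0.11, adjusted p = 0.00679).

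Many cell-cycle transcripts fell in both depletions. Of 33 mitosis and cytokinesis genes, 16 fell from the controls after Tsg101 and 23 after Vps28 depletion. Over all tested genes 6.69% and 5.04% fell. In the direct comparison 4 were called in favour of Tsg101 depletion (4.49% of all tested genes) and none in favour of Vps28 depletion (2.16%). The median direct difference was 0.22 against -0.01 over all tested genes, with 25 of 33 above 0, against 4916 of 10212. PRC1, which bundles microtubules of the central spindle, was held, at 27.3 to 51.7 CPM against 13.2 to 23.5 CPM (1.02, SE 0.14, adjusted p = 2.04e-05), although 87.2% of its transcript is shared with other transcripts. ECT2, CDC25C and KIF23 were called only. Of 42 DNA replication genes, 26 fell after Tsg101 and 34 after Vps28 depletion, against the same 6.69% and 5.04%, and the median direct difference was 0.07. RFC5, a subunit of the clamp loader, was the 1 called member, at 13.5, 14.6 and 21.0 CPM after Tsg101 depletion, 3.12, 3.34 and 4.17 CPM after Vps28 depletion and 2.51 to 8.92 CPM in controls (2.19, SE 0.19, adjusted p = 3.42e-08). E2F2, a transcription factor of S-phase entry, was held among 22 G1/S genes (1.83, SE 0.26).

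Histone genes were examined after the value of H2BC4 was seen. Of 50 tested, 7 had a called difference toward Tsg101 depletion and none was higher after Vps28 depletion, with a median of 0.18, and H2BC4, H2BC7 and H4C4 were held. Over all tested genes 4.49% and 2.16% were called in these directions, the count includes H2BC4, which prompted the look, and the calls of H1-4 and H2AC6 were lost in some fits that left out 1 library. H2BC4, a replication-dependent H2B gene, was at 87.4, 145 and 186.7 CPM after Tsg101 depletion, 32.7, 57.4 and 81.9 CPM after Vps28 depletion and 54.0, 101.2 and 146.5 CPM in controls. The depletions did not overlap each other but both overlapped the controls, and the difference was 1.33 (SE 0.17, adjusted p = 8.88e-06), made of a rise of 0.59 (adjusted p = 0.00884) and a fall of -0.74 (adjusted p = 0.00317) from the controls. H2BC4 shares 32.6% of its transcript with other transcripts.

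The siTsg101 siRNAs differed from each other more than the siVps28 siRNAs did. Between siTsg101#1 and siTsg101#2, 922 genes were called (9.03%), 3.96% higher and 5.07% lower with siTsg101#1, and between siVps28#1 and siVps28#2, 74 (0.725%), 0.264% higher and 0.46% lower with siVps28#1. The 922 exceed the 680 genes (6.66%) called between the targets, a contrast that averages both siRNAs of each. The median absolute log2 difference was 0.243 between the siTsg101 siRNAs, 0.165 between the siVps28 siRNAs and 0.189 between the targets. Of the 221 genes called higher after Vps28 depletion, 97 passed only in pairs with siTsg101#1, 35 only in pairs with siTsg101#2, and in 95 the siTsg101 siRNAs themselves differed. Of the 459 called higher after Tsg101 depletion these numbers were 42, 38 and 36. ACO1, the cytosolic aconitase and iron-regulatory protein, was at 19.0 ± 3.5 CPM (SD, n = 3) with siTsg101#1 and 62.7 ± 2.4 CPM with siTsg101#2, against 62.5 ± 1.0 and 65.1 ± 10.8 CPM with siVps28#1 and siVps28#2, so that its call (-0.87, SE 0.11) came from 1 siRNA.

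NRF2 antioxidant genes, which counter oxidative stress, included several of these. Of 18 tested, 4 were called higher after Vps28 depletion and 1 higher after Tsg101 depletion, against 2.16% and 4.49% of all tested genes. The median difference was -0.28, and none was held by edgeR or DESeq2. An unadjusted p under 0.05 was reached by 11 of the 18 and by 2950 of all 10212 tested genes. HMOX1, heme oxygenase, was at 67.6 ± 6.8 CPM (SD, n = 3) with siTsg101#1, 123.7 ± 12.9 CPM with siTsg101#2, 188.3 ± 17.4 CPM with siVps28#1 and 179.4 ± 4.4 CPM with siVps28#2, and at 67.7 CPM in both control groups. All Vps28-depleted libraries lay above all Tsg101-depleted ones, and HMOX1 failed to be held because the pair of siTsg101#2 with siVps28#2 differed by -0.54 (adjusted p = 0.0106), under 1.5-fold. NQO1, a quinone reductase, was at 52.2 ± 10.8 CPM with siTsg101#1 and 133.7 ± 11.3 CPM with siTsg101#2, and the latter did not differ from either siVps28 group by the test (-0.26 and -0.22, adjusted p = 0.411 and 0.446). SLC7A11, the cystine transporter (-0.75, SE 0.21), and OSGIN1 (-0.71, SE 0.14) were called, and GCLC, which begins glutathione synthesis, was called the other way (0.91, SE 0.14).

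Single siRNAs of Tsg101 also set calls in the other direction. CANX, an endoplasmic reticulum chaperone, was at 475.3 ± 75.1 CPM with siTsg101#1 and 988.1 ± 131.8 CPM with siTsg101#2 (SD, n = 3), against 433.1 and 439.6 CPM with the siVps28 siRNAs. JAG1, a Notch ligand, was at 29.1 ± 18.2 CPM with siTsg101#1 and 9.88 ± 2.82 CPM with siTsg101#2 (its call was lost without the replicate block, adjusted p = 0.0993), and GBP2, an interferon-induced GTPase, at 9.74 ± 3.34 and 0.79 ± 0.30 CPM. None of these 3 differences from Vps28 depletion held for both siTsg101 siRNAs.

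In the remaining lists, as in those above, the called share is read against 6.66% of all tested genes. PDIA4 was held and CANX and SEL1L were called only among 22 ER chaperone and unfolded protein response genes (13.6%), TIGAR, a p53 target that lowers glycolysis, was held (1.05, SE 0.17) with SESN1 and POLK called among 27 p53 targets (11.1%), and NR4A1, an immediate early nuclear receptor, was held (1.27, SE 0.16) among 22 AP-1 and immediate early factors (18.2%), where KLF10 was called in the same direction and IER3 and MAFF in the other. Among 35 hypoxia and glycolysis genes TPI1 was held (0.67, SE 0.12) and PDK1, P4HA2 and SLC2A3 were called (11.4%), and among 15 ERK feedback genes and EGFR ligands DUSP4, IER3 and HBEGF were called, a share above that of all tested genes. TPI1 shares 42.9% of its transcript with other transcripts, SLC2A3 52.6% and TIGAR 25.3%. A single member was called in the lists of interferon-stimulated genes (CMPK2 of 24), receptor tyrosine kinases (FGFR3 of 17), Notch pathway genes (JAG1 of 14), respiratory chain subunits (COX8A of 47) and iron handling genes (ACO1 of 15). CMPK2 was not called with DESeq2 (adjusted p = 0.0534) or without the replicate block (0.0599). HLA-F and TAPBP were called among 14 MHC class I genes (14.3%), but TAPBP was not called with DESeq2 (adjusted p = 0.118) or without the block (0.0549), and neither was called in every fit that left out 1 library. SLC36A1 and SLC7A11 were called among 19 amino acid transporters (10.5%). No member was called by edgeR or DESeq2 among 16 cytosolic heat shock genes. An unadjusted p under 0.05 was reached by 4 of the 16 and by 2950 of all 10212 tested genes. The list members with the smallest p that were not called by 1.5-fold with an adjusted p under 0.05 lay at -0.47 (EPHA2), -0.45 (BCL2L1), -0.44 (SKP2), -0.42 (COX6A1 and MTOR), -0.37 (STEAP2), -0.34 (BAG3), -0.30 (LPCAT3) and -0.26 (RFNG), and at 0.32 (HSPH1), 0.41 (ATP6V0C), 0.49 (DTX3L) and 0.49 (PSMB8).

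**Figure D5:**
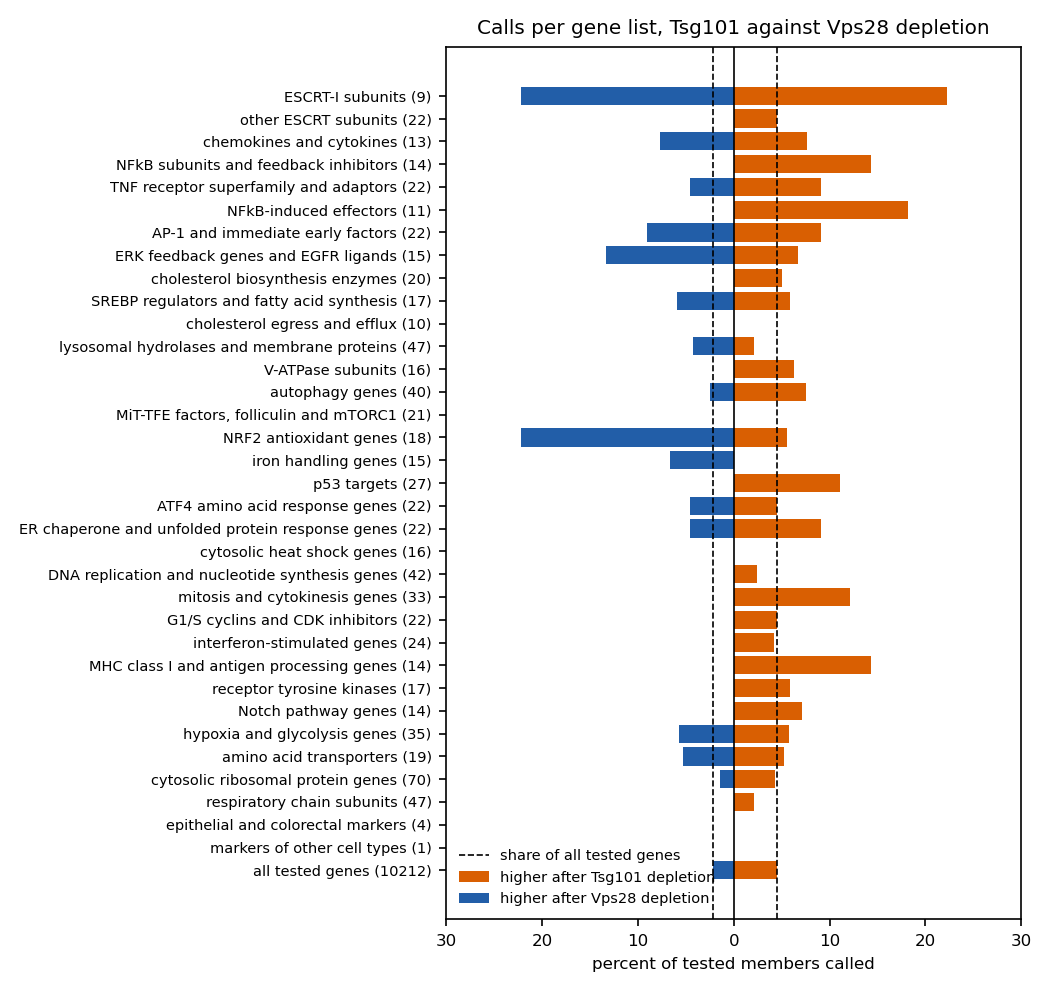
Percent of tested members of each gene list called higher after Tsg101 depletion (right) and higher after Vps28 depletion (left), with the number tested in brackets and dashed lines at the shares over all tested genes (4.49% and 2.16%). ESCRT-I subunits, which include both targets, and NRF2 antioxidant genes have the longest bars to the left, with 2 of 9 and 4 of 18 members higher after Vps28 depletion.

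The structure of the held genes is given as a description. Transcripts of held genes higher after Tsg101 depletion had a median length of 3321 bases, a median GC content of 46.1% and a median of 9 exons, those higher after Vps28 depletion 2989 bases, 51.2% and 9 exons, and all tested genes 3372 bases, 48% and 9 exons. These medians are over GRCh37 transcripts of 159 of 164, 26 of 26 and 10031 of 10212 genes. Exon bases on the opposite strand, whose reads cannot be told apart without the strand setting, are shared with another gene also by CEBPB, TMF1, TRAPPC3, TRAPPC4, RER1, RAB1A, OSBP, DERL2, TNFAIP3, EIF4B, CSPP1, TBC1D2B, H2BC4, PRC1, RFC5, KIF23, CDC25C, UVRAG, POLK, SESN1, TIGAR, NR4A1, MAFF, IER3, HGS, HMGCS1, LIPA, LPIN1, TPP1, ATP6V0A2, SLC7A11, NQO1, GCLC, CANX, JAG1, HLA-F, TAPBP, CMPK2, PDK1, P4HA2, TPI1, STK17A, ABCB8 and MVB12A. Among the list members that were not called, the same holds for BCL2L1, SKP2, MTOR, LPCAT3, RFNG, DTX3L and PSMB8. The overlaps vary in extent, for example 14 of 2700 exon bases in TPI1 and 3096 of 4692 in LPCAT3. The positions of the amplicons are not given in the sources used here. Whether an amplicon lies in a shared stretch, on either strand, is therefore not known for any gene named here.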

How the data were processed

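RKO cells were transfected with 1 of 6 siRNAs, and total RNA of 18 libraries was measured with an Ion AmpliSeq transcriptome panel. The authors aligned the reads to the hg19 panel reference with TMAP and made the deposited raw counts per gene with HTSeq 0.6.0, while their own tests used DESeq2 1.18.1. The strand setting is not given in the sources used here. Depth was 2561790 to 7466916 counts on genes per library, and rows that name no gene (48.2% to 49.1% without a feature) stayed out of library sizes.

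Groups and batch numbers came from the labels. All 18 libraries were fitted in edgeR 4.0.16 (R 4.3.3) with TMM scaling, the 6 siRNAs and the batch as terms, for 10212 coding genes with more than 100 counts in all. The quasi-likelihood test with Benjamini-Hochberg adjustment compared the mean of both siTsg101 siRNAs with the mean of both siVps28 siRNAs, and each siRNA pair. Baseline was the mean of siCtrl#1 and siCtrl#2. A gene was called at 1.5-fold and an adjusted p under 0.05, and held when all 4 siRNA pairs were called alike. Same-numbered Tsg101 and Vps28 libraries deviated together with a mean correlation of 0.191 (0.00809 to 0.333 over 12 pairs), and the labels name the number as a batch. The scripts were tested on simulated data.

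Named genes were the targets, the 12 largest held differences in each direction, and in each gene list up to 4 held members with the largest size or, where fewer than 2 were held, the 2 with the smallest p. Genes called in opposite directions from the controls were named as well. All other genes named, further called list members included, were chosen after their values were seen. The members and lists were chosen with earlier results of these data known. Positions and overlaps came from GENCODE on GRCh37, and promoters from RefSeq on GRCh38.p14, of which 8428 matched a tested gene. Alternatives were DESeq2 1.42.0, other scaling, filters and libraries, thinning, no batch term and leaving out each library. Some items that the rule names are not reported here.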

Additional observations from a re-analysis of the deposited data

Results flagged for a closer look

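In 170 groups of 6 libraries examined for a library far from the others (gap to the nearest library over the whole range, against Dixon's critical value), 8 were flagged, and chance flags about 1 in 20 such groups. WDR45 was low in siVps28#1 of batch 2 (ratio 0.707, 1.44 CPM against a next value of 2.43). VPS37A was low in siTsg101#1 of batch 2 (ratio 0.687, 17.8 against 24.2 CPM), and so was NR4A1 (ratio 0.718, 9.71 against 13.5 CPM). EBI3 was low in siVps28#1 of batch 2 (ratio 0.696, 0.961 against 2.64 CPM). INSIG2 was high (ratio 0.662, 18.4 against 12.4 CPM) and EPHA2 low (ratio 0.628, 139 against 194 CPM) in siTsg101#1 of batch 1. ACO1 was high (ratio 0.694, 77.6 against 63.4 CPM) and COX8A low (ratio 0.708, 58 against 98.5 CPM) in siVps28#2 of batch 3.

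H2BC4 was called in opposite directions from the controls in the depletions, and its direct difference was 1.325 (SE 0.172, adjusted p = 8.88e-06, edgeR quasi-likelihood test).

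Noncoding targets of the panel were left out of the main comparison, and when they were fitted with all genes 3 of 420 were held, all higher after Tsg101 depletion. In that fit 167 and 27 of all 10632 tested genes were held (higher after Tsg101 and after Vps28 depletion). Of the 420, 20 and 8 were called (6.67%), against 478 and 228 of the 10632. SCARNA5, a small Cajal body RNA, differed by 1.467 (SE 0.195, adjusted p = 1.35e-05), with 26 to 183 counts after Tsg101 depletion, 19 to 78 after Vps28 depletion and 15 to 27 in controls. VPS9D1-AS1 differed by 1.243 (SE 0.141, adjusted p = 1.62e-06) and NBR2 by 0.953 (SE 0.178, adjusted p = 0.000657).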

How the results depend on the processing

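No result changed direction under any alternative. Without the replicate block the calls were 425 and 211 (higher after Tsg101 and after Vps28 depletion) and the held genes 141 and 22, all of them among the 165 and 27. The siVps28#1 against siVps28#2 count of 74 was 49 without the replicate block, 116 with DESeq2, 158 without the filter on low counts and 47 after thinning to the smallest library. With the adjusted p alone, 809 and 697 genes were called and 44 were held higher after Vps28 depletion. With siTsg101#1 alone for Tsg101, 502 genes were called higher after Vps28 depletion. Requiring only the same direction in all 4 pairs and a called mean gave 444 and 194 genes.

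Leaving out each of the 18 libraries gave 414 to 479 and 213 to 230 called genes, 125 to 174 and 16 to 31 held genes, 96 to 142 and 13 to 27 of them changed with Tsg101 depletion only, 584 to 1039 genes between the siTsg101 siRNAs, 20 to 120 between the siVps28 siRNAs, and target differences of -5.11 to -4.84 (TSG101) and 3.86 to 4.16 (VPS28). The 16 and 13 came without siTsg101#2 replicate 2. The siTsg101 count was 603 without siTsg101#1 replicate 1 and 584 without siTsg101#1 replicate 3. The siVps28 count was 120 without siCtrl#2 replicate 1, and 23, 20 and 29 without siVps28#1 replicates 1, 2 and 3, and 47, 36 and 32 without siVps28#2 replicates 1, 2 and 3. Of 113 named genes with a call, 21 lost it in some setting (TAPBP, JAG1, EBI3, HLA-F, HBEGF, PDK1, RPL24, CMPK2, H1-4, COX8A, GABARAPL2, CDC25C, KIF23, LPIN1, H2AC6, CSF2, GBP2, SESN1, TNFRSF21, TPP1 and TRAF5). None of the 68 held ones lost the call of the mean where it was tested. With the same genes tested, at the fewest 125 of the 165 and 16 of the 27 stayed held. The causes were not tested. With at least 10 counts in every library 335 and 181 genes were called, and 81 of the 113 were tested there, TSG101 not among them. In that fit 118 of the 165 and 23 of the 27 were held, and genes with fewer counts were not tested.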
